A study of Mus musculus with 18 samples.

Results

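The 9 genes described here belong to the mast cell and basophil programme: Fcer1a, Ms4a2, Ms4a3, Il1rl1, Kit, Cpa3, Gzmb, Hdc and Mitf. They were measured by RNA sequencing in mouse erythroleukemic cells, and were taken by their symbols from deposited count tables that together name 30651 genes. All 9 matched a row in experiment 1. In experiment 2, 8 matched, and Mitf was not analysed there.

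Mast cells and basophils carry the high-affinity IgE receptor, whose alpha chain (Fcer1a) binds IgE and whose beta chain (Ms4a2) strengthens the signal passed on by the shared gamma chain. Mast cells depend on the receptor tyrosine kinase KIT for survival and respond to the alarm cytokine IL-33 through ST2, the product of Il1rl1. Their granules hold proteases such as carboxypeptidase A3 and granzyme B together with histamine, which histidine decarboxylase (Hdc) makes. MITF and GATA2 are lineage transcription factors of mast cells, and PU.1, the product of Spi1, is an ETS factor that is needed for mast cell development and binds with GATA factors at several mast cell genes.

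The cells were TgSpi1 erythroleukemic cells under 1 label, #763: leukemic erythroid cells from bone marrow that overexpress Spi1 and were grown with erythropoietin. All 18 libraries came from cells that carry a hairpin RNA against Spi1 which doxycycline (Dox) switches on. Experiment 1 compared cells without Dox and cells given Dox for 48 h. Experiment 2 crossed the same 48 h of Dox, or none, with 6 h of either 3 µM entinostat, an inhibitor of histone deacetylases (HDAC1 and HDAC3 in the labels), or its vehicle DMSO. That gave 6 groups of 3 libraries, which the labels call biological replicates. No group carried a control hairpin, so the effect of Dox itself and that of the knockdown cannot be told apart, and the results rest on cells of that 1 label.

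Totals were 82.7 to 114 M counts per library in experiment 1 and 43.1 to 48.9 M in experiment 2. Levels are given as CPM, counts per 1000000 after TMM scaling of library sizes. Spi1 fell with Dox in experiment 1 (log2 fold change -1.73), in DMSO (-1.29) and in entinostat (-1.59), with adjusted p-values from edgeR of 0.000828, 0.0264 and 0.00722. The call in DMSO was lost without replicate 2 or 3 of DMSO or replicate 1 or 3 of Dox plus DMSO (adjusted p 0.0507 to 0.0903). Replicate 1 of Dox plus DMSO and replicate 1 of entinostat alone stood apart from their groups in the same way: their deviations from the group means correlated at 0.78 over genes, which are not independent. Each held the lowest Spi1 level of its group, at 59.5 CPM (126 and 105 in replicates 2 and 3) and 221 CPM (480 and 482). Replicate 1 was also lowest in DMSO, at 200 CPM beside 259 and 251. In Dox plus entinostat it was lowest too, at 98.5 CPM beside 162 and 132. The part of the Spi1 level in how the libraries stood apart was not tested. Member calls that the libraries standing apart change are given with and without them. Erythroid markers (12 genes) summed to at least 3316 CPM in every library. Of 9 mast cell markers that are no members, 5 were listed in each table, with a summed level of 0.82 to 7.53 CPM in experiment 1 and 0.886 to 117 CPM in experiment 2, mostly from the protease Mcpt2. Basophil markers that are no members summed to 0.208 to 2.34 CPM in experiment 1 (4 of 4 listed) and 0.346 to 43.4 CPM in experiment 2 (3 of 4 listed). Among them, the basophil protease Mcpt8 was at 0 in 3 of the 4 groups of experiment 2.

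Among the members, Il1rl1 stood far above the rest. Levels of different genes were compared as CPM per kilobase of exon, with the length taken over all annotated exons of a gene. The length of the transcripts made in these cells was not measured. In DMSO without Dox, Il1rl1 stood at 53.5 ± 1.6 (SD, n = 3) CPM per kilobase, Fcer1a at 3.85 ± 1.7 and Gzmb at 1.03 ± 0.49, and the libraries of these 3 genes did not overlap with each other. Below them came Hdc (0.613 ± 0.044), Kit (0.549 ± 0.23), Ms4a2 (0.505 ± 0.26), Cpa3 (0.248 ± 0.17) and Ms4a3 (0.160 ± 0.018) CPM per kilobase. Gzmb (0.689 at the lowest) overlapped Kit (0.779 at the highest) and Ms4a2 (0.743), and each gene from Hdc down overlapped the next one over the 3 libraries, so the order below Fcer1a is not fully resolved. Under entinostat without Dox, Il1rl1 (177 ± 15) and Fcer1a (47.9 ± 41) kept the first places, and Ms4a2 came next at 5.95 ± 4.3 CPM per kilobase, while Kit came last at 0.973 ± 0.27. Each gene from Ms4a2 down overlapped the next one there, so that order is not resolved either. Mitf, the lineage factor, had 2, 2 and 1 counts in the libraries of experiment 1 without Dox and 1 in each Dox library, where 1 is the lowest value the table holds; no fold is given for it.

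**Figure D1:**
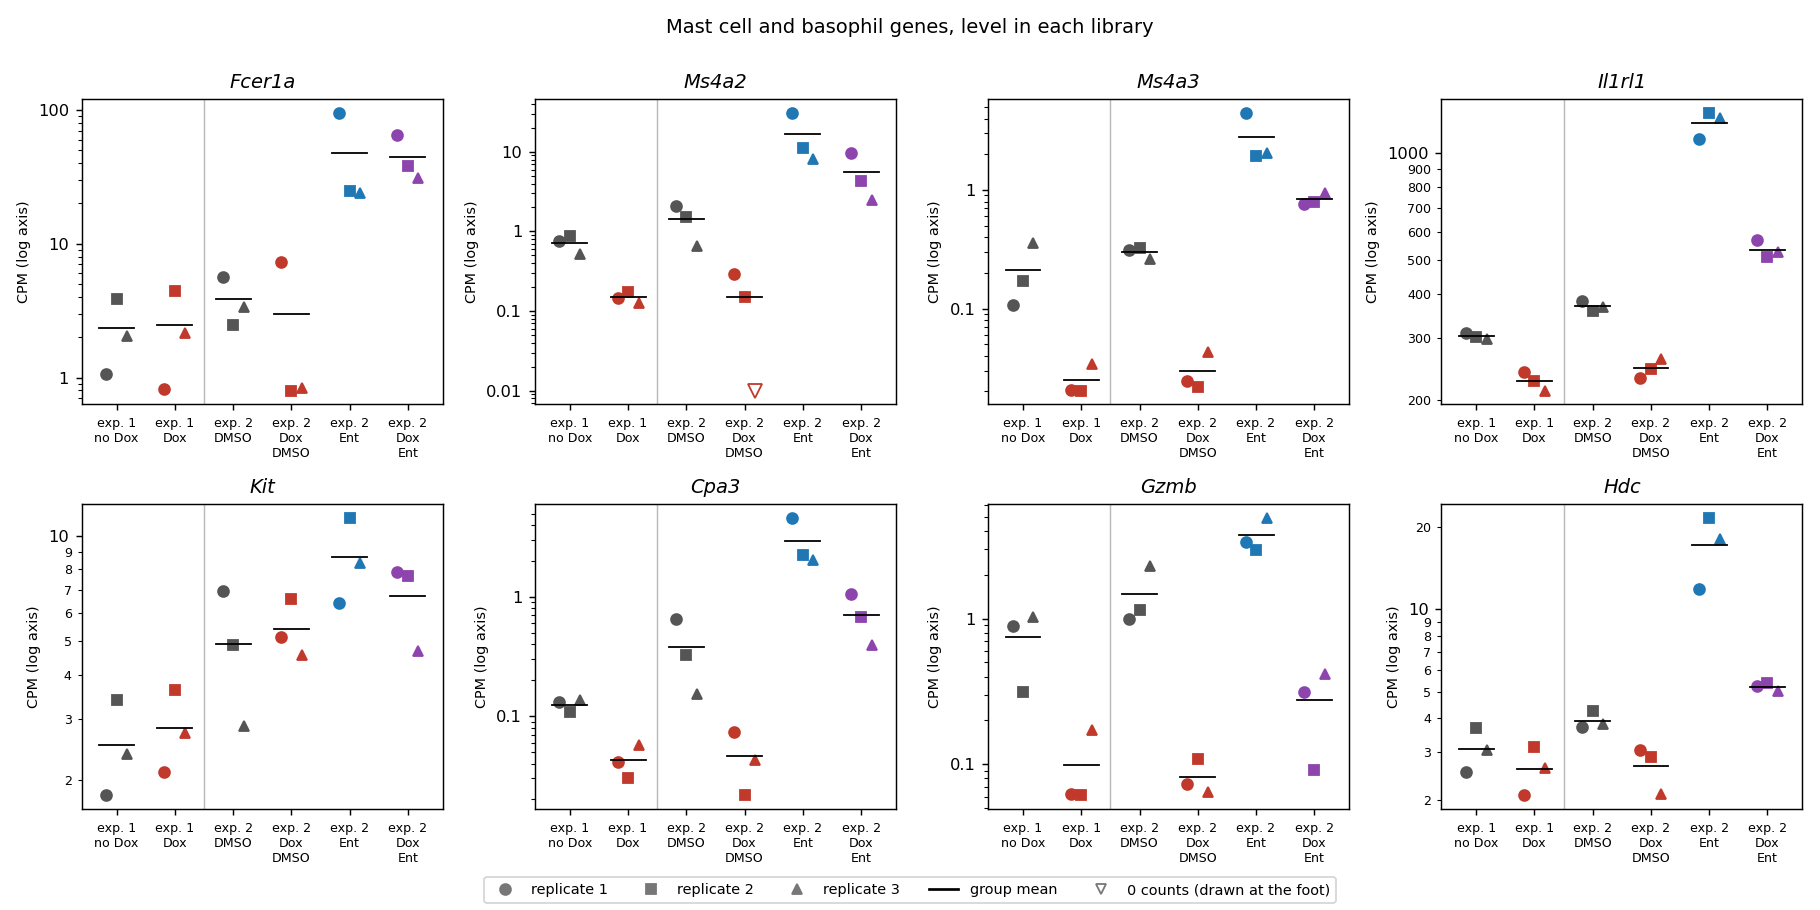
CPM on a log axis of 8 members in each of 18 libraries, by group; symbols give the replicate number, bars the group mean, and Ent stands for entinostat. Ms4a2, Ms4a3 and Gzmb lie lower in every Dox library than in every library without Dox of the same experiment and DMSO or untreated condition, and Fcer1a spreads widely within groups.

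Dox lowered a subset of the members: the beta chain gene Ms4a2, its neighbour Ms4a3, the granzyme gene Gzmb and, to a smaller degree, the IL-33 receptor gene Il1rl1 fell in both experiments, and the protease gene Cpa3 fell where it was tested. Fcer1a and Kit passed the test in no Dox comparison. In experiment 1, 4 of the 7 members tested were lower at an adjusted p under 0.05 and 0 were higher, where 8.36% of all genes tested were lower and 5.26% higher; the groups of the same 4 did not overlap (16.8% of all genes). In DMSO, 5 of 8 were lower and 0 higher, where 5.53% of all genes tested were lower and 3.77% higher. In a bulk sample, fewer cells of a type and less RNA per cell cannot be told apart. Several members entered the test only through the group where they were high: the low-count filter was met in 0 of 3 Dox libraries by Ms4a3 in experiment 1, in 1 of 3 by Gzmb there, in 1 of 3 Dox plus DMSO libraries by Ms4a2, and in 0 of 3 by Ms4a3, Gzmb and Cpa3, so their counts among the lower members describe the tables and support nothing further.

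The promoters of the 4 members with the largest decreases are shown because Dox lowered Spi1 together with them, and PU.1 and GATA factors have known recognition letters that can be looked for. Each is the stretch of 250 bases before the gene's start in RefSeq (GRCm38.p6), on the gene's own strand, with matches to AGATAA or its reverse complement TTATCT in capitals.

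Ms4a2 chr19:11623720-11623969, minus strand: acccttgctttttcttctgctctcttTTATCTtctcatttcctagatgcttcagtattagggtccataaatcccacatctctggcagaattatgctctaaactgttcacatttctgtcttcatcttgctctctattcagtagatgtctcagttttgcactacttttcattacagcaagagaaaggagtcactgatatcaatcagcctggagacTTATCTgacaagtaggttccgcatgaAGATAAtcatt

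Ms4a3 chr19:11640852-11641101, minus strand: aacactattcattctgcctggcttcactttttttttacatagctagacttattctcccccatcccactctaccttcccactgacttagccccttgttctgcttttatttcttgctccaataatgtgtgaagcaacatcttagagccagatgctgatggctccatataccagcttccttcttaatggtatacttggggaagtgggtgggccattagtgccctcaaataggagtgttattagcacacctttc

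Gzmb chr14:56262335-56262584, minus strand: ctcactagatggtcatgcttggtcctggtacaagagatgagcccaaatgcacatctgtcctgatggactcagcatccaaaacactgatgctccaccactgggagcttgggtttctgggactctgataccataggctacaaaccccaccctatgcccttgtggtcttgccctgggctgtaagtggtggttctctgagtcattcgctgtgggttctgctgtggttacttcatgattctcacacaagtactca

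Cpa3 chr3:20242182-20242431, minus strand: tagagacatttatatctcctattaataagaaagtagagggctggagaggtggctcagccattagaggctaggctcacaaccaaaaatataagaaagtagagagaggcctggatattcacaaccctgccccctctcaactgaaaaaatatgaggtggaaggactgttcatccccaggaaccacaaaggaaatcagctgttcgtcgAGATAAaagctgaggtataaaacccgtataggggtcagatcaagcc

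The Ms4a2 stretch holds 3 matches to the GATA letters, at -224 to -219, -37 to -32 and -11 to -6 from the start, and the Cpa3 stretch holds 1, at -46 to -41. Ms4a3 and Gzmb hold none. Over all members, 13 promoters of 9 genes were searched on both strands, and no matches of different motifs overlapped. AGATAA was found in 5 of the 13 promoters, of 4 members (Cpa3, Fcer1a, Il1rl1 and Ms4a2), where 9.99% of 32851 RefSeq promoters of the same length hold it. TGATAA, a further GATA form, was found in 3 of the 13 (Il1rl1 and Mitf), where 7.94% hold it. The PU.1 core GAGGAA was found in 3 of the 13 (Fcer1a and Kit), where 23.3% of promoters hold it. The Kit promoters, from 75574737 and from 75574741 on chromosome 5, overlap almost wholly and hold the same match. Of the MITF E-boxes, CACGTG was found in 0 of the 13, where 6.02% hold it, and CATGTG in 1 (Fcer1a), where 12.3% hold it. A match describes letters in the window and is not a binding site.

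The receptor genes differed in their response to Dox. Fcer1a (chr1:173221284-173227214, minus strand, mm10), the IgE-binding alpha chain, stood at 1.07, 3.89 and 2.03 CPM without Dox in experiment 1 and at 0.820, 4.43 and 2.15 CPM with it. The groups overlapped and followed the replicate number, with replicate 2 highest and replicate 1 lowest in both. The log2 fold change was 0.08 ± 0.68 (SE; adjusted p = 0.970, edgeR). In DMSO the libraries held 5.69, 2.48 and 3.36 CPM without Dox and 7.32, 0.799 and 0.840 CPM with Dox. Replicates 2 and 3 with Dox lay below all 3 controls, and replicate 1 above them. The log2 fold change of -0.38 ± 0.78 did not pass (adjusted p = 0.872). Without replicate 1 of Dox plus DMSO it was -2.22 and passed (adjusted p = 0.0430, edgeR), so 1 library decides whether Fcer1a counts as lower in DMSO. Replicate 1 was the highest library without Dox as well, and that fit kept it there.

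Ms4a2 (chr19:11615523-11623719, minus strand), the signal-amplifying beta chain, stood at 0.767, 0.888 and 0.518 CPM without Dox in experiment 1 and at 0.145, 0.173 and 0.126 CPM with it. The groups did not overlap, and the log2 fold change was -2.28 ± 0.28 (adjusted p = 0.00420, edgeR). In DMSO the values were 2.09, 1.52 and 0.655 CPM without Dox, and 0.295 and 0.151 CPM with Dox in replicates 1 and 2. Replicate 3 with Dox held 0 counts, which allows up to 3 counts or 0.0646 CPM. The groups again did not overlap, and the log2 fold change was -3.28 ± 0.88 (adjusted p = 0.0333). Without both libraries that stood apart it was -4.19 (adjusted p = 0.00386), in a fit that kept replicate 1 without Dox, also the highest of its group. Ms4a3 (chr19:11629496-11640851, minus strand) lies 5.8 kb away on the same strand and encodes another membrane protein of the family, known from basophils and myeloid progenitors. It had few counts: 60 over the 3 libraries without Dox in experiment 1 against 7 with Dox, and 41 in DMSO against 4. The ratios of summed counts, scaled for depth, were 8.52 (95% exact interval 3.89 to 22.1) and 10.03 (3.63 to 38.6), where the intervals cover counting error only. Neither pair of groups overlapped, and the adjusted p-values were 0.0248 and 0.00297 (edgeR). No value of experiment 1 lies under 1, and the ratio there takes the values as they stand. With 1 taken from each count of experiment 1, Ms4a3 no longer entered the test, so its call there was lost.

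Il1rl1 (chr1:40429570-40465415, plus strand), which encodes the ST2 receptor for IL-33, stood at 311, 301 and 297 CPM without Dox in experiment 1 and at 240, 227 and 213 CPM with it. In DMSO its levels were 381, 359 and 367 CPM without Dox and 231, 245 and 262 CPM with Dox. Neither pair of groups overlapped. The decreases were the smallest among those called, with log2 fold changes of -0.42 ± 0.07 (adjusted p = 0.0144) and -0.58 ± 0.17 (adjusted p = 0.0429, edgeR). Kit (chr5:75574916-75656722, plus strand), the receptor for stem cell factor, stood at 1.81, 3.38 and 2.38 CPM without Dox in experiment 1 and at 2.11, 3.61 and 2.74 CPM with it. In DMSO the libraries held 6.94, 4.87 and 2.86 CPM without Dox and 5.13, 6.57 and 4.57 CPM with it. Both pairs of groups overlapped, and the log2 fold changes were 0.16 ± 0.29 (adjusted p = 0.826) and 0.15 ± 0.32 (adjusted p = 0.880, edgeR). In experiment 1 each Dox library lay above the untreated library of the same number (ratios 1.16, 1.07 and 1.15), and the fit with the replicate number as a block did not pass either (adjusted p = 0.161). A p that misses the threshold does not show that Kit was unaffected.

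Among the granule genes, Gzmb (chr14:56258838-56262260, minus strand), a serine protease also made by cytotoxic lymphocytes, stood at 0.887, 0.314 and 1.03 CPM without Dox in experiment 1 and at 0.0623, 0.0611 and 0.172 CPM with it. In DMSO the values were 0.989, 1.15 and 2.29 CPM without Dox and 0.0737, 0.108 and 0.0646 CPM with Dox. The groups did not overlap in either experiment. Its log2 fold changes were -2.91 ± 0.61 (adjusted p = 0.0265) and -4.12 ± 0.56 (adjusted p = 0.000330, edgeR), the latter a 17.4-fold decrease and the largest among the members in DMSO. The T and NK marker list (8 of 12 listed) summed to 1.85 to 3.12 CPM without Dox and 3.66 to 3.86 CPM with Dox in DMSO, with Cd3d, Trac, Cd4, Klrb1c and Nkg7 at 0 in both groups. The part of such cells in the Gzmb values was not tested.

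Cpa3 (chr3:20215620-20242181, minus strand), a metallocarboxypeptidase stored in mast cell granules, had 11, 12 and 12 counts without Dox in experiment 1 and 4, 3 and 5 with it, too few for the filter. The ratio of summed counts there was 2.90 (95% exact interval 1.47 to 6.14, counting error only). It takes the values as they stand, where 1 is the lowest value in that experiment. In DMSO its levels were 0.652, 0.326 and 0.153 CPM without Dox and 0.0737, 0.0216 and 0.0431 CPM with it. The groups did not overlap, and the log2 fold change was -2.98 ± 0.75 (adjusted p = 0.0240, edgeR). Hdc (chr2:126593667-126619299, minus strand), the histamine-forming enzyme, stood at 2.54, 3.69 and 3.05 CPM without Dox in experiment 1 and at 2.09, 3.13 and 2.62 CPM with it. Those groups overlapped, and the log2 fold change of -0.24 ± 0.21 did not pass (adjusted p = 0.556), but each Dox library lay below the untreated library of the same number. In a fit with the replicate number as a block the log2 fold change was again -0.24, and it passed (adjusted p = 0.0414, edgeR). That fit called 7027 of 13811 genes tested, so a call was common there. In DMSO, Hdc stood at 3.71, 4.24 and 3.80 CPM without Dox and at 3.07, 2.87 and 2.11 CPM with it. These groups did not overlap, as for 6 of 8 members that were lower without overlap (14.3% of all genes tested), yet the log2 fold change of -0.54 ± 0.23 did not pass (adjusted p = 0.196). Without both libraries that stood apart it was -0.65 and passed (adjusted p = 0.0117, edgeR), in a fit that called 4846 of 15478 genes tested.

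**Figure D2:**
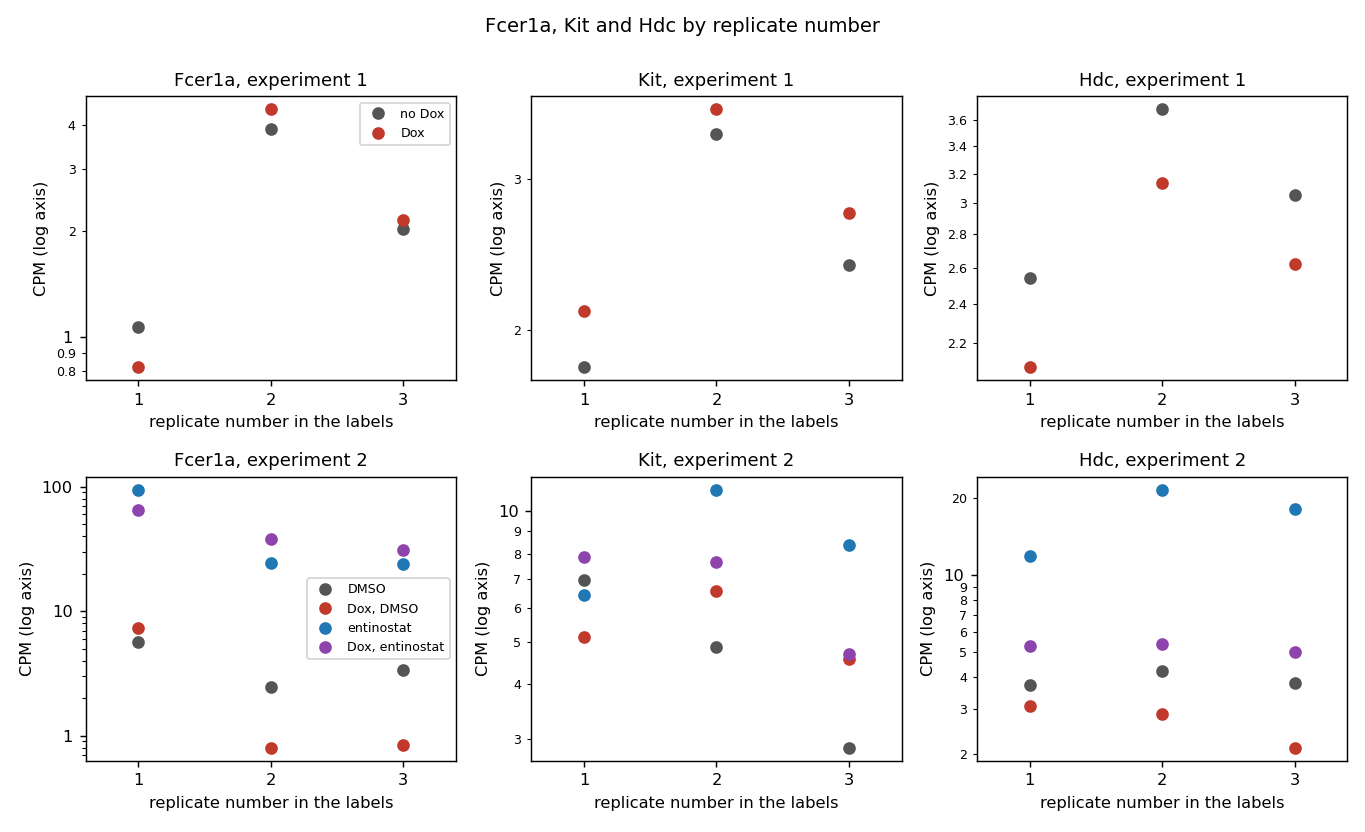
CPM on a log axis of Fcer1a, Kit and Hdc by replicate number, in experiment 1 (upper row) and experiment 2 (lower row). In experiment 1 replicate 2 is highest and replicate 1 lowest for all 3 genes in both groups; in experiment 2 the Fcer1a library of replicate 1 with Dox plus DMSO lies at 7.32 CPM, above its 2 companions at 0.799 and 0.840.

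Several calls were lost when 1 library was left out. In experiment 1, leaving out 1 library ended the call of Gzmb for 5 of the 6 libraries (all but replicate 2 without Dox; adjusted p 0.0518 to 0.0987), of Ms4a3 for each Dox library (0.0736 to 0.0937) and of Il1rl1 for replicate 3 without Dox and replicates 2 and 3 with Dox (0.0606 to 0.0766), while Ms4a2 kept its call in the 13 alternatives that tested it. In DMSO, Il1rl1 lost its call without any 1 of 9 of the 12 libraries (all but entinostat replicate 1 and Dox plus entinostat replicates 1 and 2; 0.0667 to 0.150), Ms4a2 without replicate 1 or 2 of DMSO, replicate 2 or 3 of Dox plus DMSO or replicate 2 of Dox plus entinostat (0.0552 to 0.106), and Cpa3 without replicate 1 of DMSO or replicate 2 or 3 of Dox plus DMSO (0.0855 to 0.105).

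Under entinostat, Dox lowered 5 of 8 members (Gzmb, Cpa3, Ms4a3, Hdc and Il1rl1) and raised 0, where 15.1% of all genes tested were lower and 8.96% higher; with library size alone as the scale, all genes split into 1107 higher and 3149 lower in place of 1348 and 2266. Hdc, which did not pass in DMSO with all libraries, stood at 11.9, 21.6 and 18.1 CPM with entinostat alone and at 5.26, 5.37 and 5.02 CPM with Dox added. The groups did not overlap, and the log2 fold change was -1.72 ± 0.23 (adjusted p = 0.000501, edgeR). Il1rl1 stood at 1098, 1298 and 1259 CPM with entinostat alone and at 567, 510 and 524 CPM with Dox added (log2 fold change -1.19 ± 0.17, adjusted p = 0.000755). For both genes the Dox libraries lay below all libraries with entinostat alone, as for 5 of 8 members (19.4% of all genes tested were lower without overlap).

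Gzmb stood at 3.36, 2.96 and 4.89 CPM with entinostat alone and at 0.313, 0.0909 and 0.418 CPM with Dox added. These groups did not overlap either, and the decrease was 13.5-fold (log2 fold change -3.75 ± 0.48, adjusted p = 0.000392, edgeR). Cpa3 stood at 4.58, 2.27 and 2.04 CPM with entinostat alone and at 1.05, 0.682 and 0.396 CPM with Dox added (log2 fold change -2.05 ± 0.49, adjusted p = 0.0138). Its call was lost without replicate 2 or 3 of Dox plus entinostat (adjusted p 0.0562 and 0.0679). Ms4a3 stood at 4.45, 1.92 and 2.04 CPM against 0.761, 0.796 and 0.947 CPM (log2 fold change -1.74 ± 0.34, adjusted p = 0.00518).

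Ms4a2 did not pass here. It stood at 30.7, 11.3 and 8.17 CPM with entinostat alone and at 9.78, 4.34 and 2.47 CPM with Dox added, with replicate 1 highest in both groups and the groups overlapping. The log2 fold change was -1.60 ± 0.64 (adjusted p = 0.0808, edgeR). It passed with no filter on low counts (0.00190) and without replicate 1 of Dox plus DMSO (0.0427) or of Dox plus entinostat (0.0481), and was -0.82 (adjusted p = 0.156) without both libraries that stood apart. Fcer1a stood at 94.8, 24.6 and 24.1 CPM against 65.2, 38.2 and 30.8 CPM (log2 fold change -0.10 ± 0.73, adjusted p = 0.927). Without both libraries that stood apart its direction turned, to 0.87 (adjusted p = 0.0191), so no direction is given for Fcer1a under entinostat. Replicate 1 was highest for Ms4a2 and Fcer1a in every group of experiment 2. That fit left it out with entinostat alone and kept it with Dox plus entinostat, so it compared unlike sets of replicate numbers. It called 9569 of 15478 genes tested. Kit stood at 6.43, 11.2 and 8.37 CPM against 7.86, 7.64 and 4.69 CPM, which overlap (log2 fold change -0.37 ± 0.32, adjusted p = 0.389).

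Entinostat raised 7 of 8 members within 6 h, with and without Dox, and Kit was the exception in both comparisons. In Dox plus DMSO the low-count filter was met in 1 of 3 libraries by Ms4a2 and in 0 of 3 by Ms4a3, Gzmb and Cpa3. Their summed counts there were 19, 4, 11 and 6, so they entered the test through groups where they were higher. Their calls with Dox describe the data and support nothing further, and those fold changes rest on few counts. Without Dox, 30.3% of all genes tested were higher and 16.9% lower, and the libraries of 7 members were higher without overlap (33.8% of all genes higher and 26.4% lower in that way); with library size alone as the scale, all genes split into 5417 higher and 1233 lower in place of 4554 and 2545. With Dox, 33.9% of all genes tested were higher and 29.9% lower. A call in the higher direction was thus common among all genes in these comparisons. The DMSO libraries used here are the same ones that serve the Dox comparison, so the values are given side by side and no overlap is drawn between them.

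Both IgE receptor genes rose. Fcer1a went from 2.48 to 5.69 CPM over the DMSO libraries to 24.1 to 94.8 CPM over the entinostat libraries, without overlap, a 12.4-fold increase (log2 fold change 3.64 ± 0.82, adjusted p = 0.00271, edgeR). With Dox it went from 0.799 to 7.32 CPM to 30.8 to 65.2 CPM, again without overlap (log2 fold change 3.92 ± 0.83, adjusted p = 0.00135). Without both libraries that stood apart the log2 fold changes were 2.66 and 5.76. Ms4a2 rose 11.7-fold without Dox (log2 fold change 3.55 ± 0.70, adjusted p = 0.00115) and by a log2 fold change of 5.24 ± 0.87 with Dox (adjusted p = 0.000249), from a group with 1 library at 0. Without both libraries that stood apart these were 2.77 and 6.14. For Fcer1a and Ms4a2 replicate 1 was highest in every group, and those fits kept it in DMSO and in Dox plus entinostat. Ms4a3 rose 9.23-fold without Dox (log2 fold change 3.21 ± 0.38, adjusted p = 2.63e-05) and by 4.68 ± 0.53 with Dox (adjusted p = 1.67e-05). All libraries of these 3 genes were higher with entinostat than any with DMSO of the same Dox state.

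Il1rl1, already the most abundant member, rose from 359 to 381 CPM to 1098 to 1298 CPM without Dox (log2 fold change 1.72 ± 0.17, adjusted p = 7.87e-06, edgeR). With Dox the log2 fold change was 1.12 ± 0.17 (adjusted p = 0.000121). Kit had a log2 fold change of 0.83 ± 0.32 without Dox (adjusted p = 0.0503) and 0.31 ± 0.32 with it (adjusted p = 0.411), and its groups overlapped in both. Its first value lies at the threshold: it passed in 11 of 21 alternatives. These included DESeq2 (adjusted p = 0.0315), limma-voom (0.0371), library size alone as the scale (0.0169), no filter (0.0212) and a filter of 1 CPM (0.0411). It also passed without replicate 1 of DMSO, of entinostat or of Dox plus DMSO, or replicate 3 of Dox plus entinostat (0.0202 to 0.0484), and without both libraries that stood apart (adjusted p = 0.0115).

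The granule genes rose as well. Cpa3 rose 7.82-fold without Dox (log2 fold change 2.97 ± 0.52, adjusted p = 0.000516) and by a log2 fold change of 3.90 ± 0.72 with Dox (adjusted p = 0.000503, edgeR). Hdc rose 4.39-fold without Dox (2.14 ± 0.23, adjusted p = 1.52e-05) and 1.94-fold with it (0.96 ± 0.23, adjusted p = 0.00292). Gzmb rose least among the granule genes without Dox (1.34 ± 0.41, adjusted p = 0.0164), and with Dox its log2 fold change was 1.71 ± 0.62 (adjusted p = 0.0292). The Gzmb groups overlapped with Dox, as 6 of 8 members were higher there without overlap (35.4% of all genes tested). The call without Dox was lost without replicate 1 or 2 of DMSO or replicate 3 of entinostat (adjusted p 0.0697 to 0.0764), and that with Dox without replicate 1 or 3 of Dox plus DMSO or of Dox plus entinostat (0.0576 to 0.131). The value with Dox was 1.64 without both libraries that stood apart and did not pass (adjusted p = 0.0612). The call of Gzmb with Dox was also lost with limma-voom (adjusted p = 0.0942).

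Marker genes of other blood cells also stood higher with entinostat. Without Dox, the macrophage and monocyte list (9 of 10 listed) summed to 18.03 to 20.7 CPM in DMSO and 56.0 to 60.8 CPM with entinostat. The neutrophil list (6 of 10) went from 0.152 to 0.337 CPM to 2.81 to 3.91 CPM, and the T and NK list (8 of 12) from 1.85 to 3.12 CPM to 8.24 to 12.4 CPM. The megakaryocyte list (8 of 8) went from 42.3 to 90.9 CPM to 133 to 180 CPM, and the mast cell markers that are no members from 15.1 to 33.6 CPM to 31.4 to 117 CPM. The basophil list (3 of 4) went from 3.93 to 4.16 CPM to 22.9 to 43.4 CPM. C1qb of the macrophage list and Cd4 of the T and NK list were at 0 in the entinostat group, and the basophil protease Mcpt8 was too. Their part in the members' rise was not tested.

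**Figure D3:**
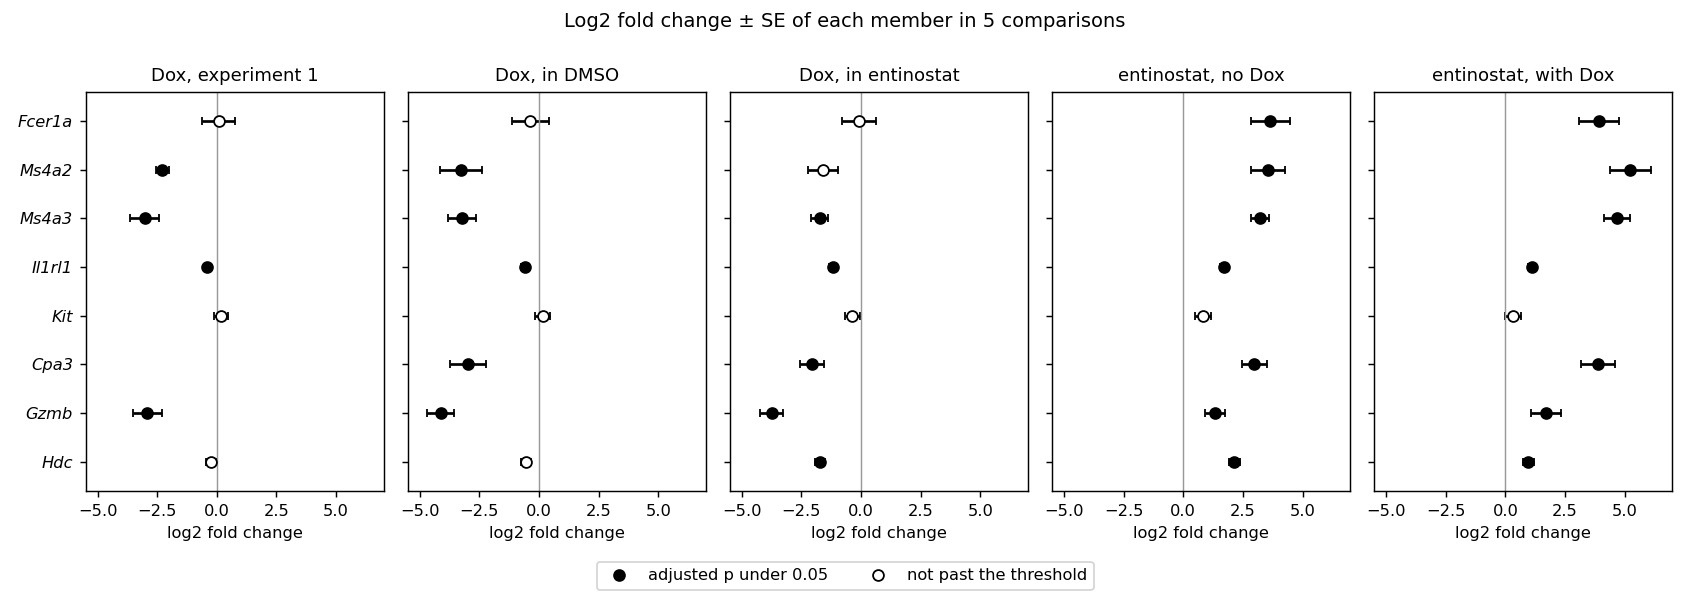
Log2 fold change with its SE (horizontal bars) of 8 members in 5 comparisons, from edgeR; filled points have an adjusted p under 0.05, and Cpa3 was not tested in experiment 1. Points lie left of 0 for Ms4a2, Ms4a3, Il1rl1 and Gzmb in the 3 Dox panels and right of 0 for all 8 members in both entinostat panels, with Kit open in each.

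Whether Dox acted differently under entinostat was tested as an interaction, the Dox effect in entinostat minus that in DMSO. None of 8 members passed in edgeR (0 called, against 0.166% of all genes higher and 0.106% lower), and 2 had an unadjusted p under 0.05. These were Hdc, at -1.18 ± 0.32 on the log2 scale (adjusted p = 0.221), and Il1rl1, at -0.61 ± 0.23 (adjusted p = 0.314). DESeq2 called the same 2 (adjusted p = 0.0435 for Hdc and 0.0193 for Il1rl1), and limma-voom called 0. Without both libraries that stood apart, edgeR called 5: Hdc (-1.28) and Il1rl1 (-0.72) lower, and Ms4a2 (3.37), Ms4a3 (1.87) and Fcer1a (3.10) higher. In that setting it called 7972 of 15478 genes tested, so a call was common there. Replicate 1 was highest for Ms4a2 and Fcer1a in every group of experiment 2, and that setting kept it in DMSO and in Dox plus entinostat. Without replicate 1 of entinostat alone edgeR called Hdc (adjusted p = 0.0223) and Ms4a3 (0.0379), and without replicate 1 of Dox plus DMSO it called Hdc (0.0445). Calls over all genes also differed under DESeq2 and with 1 library left out, and are given at the end. As a description with no test, in the combined state of Dox plus entinostat Ms4a2 stood at 2.47 to 9.78 CPM against 0.655 to 2.09 CPM in DMSO without Dox, and Cpa3 at 0.396 to 1.05 against 0.153 to 0.652 CPM. Gzmb, at 0.0909 to 0.418 CPM, stayed below the 0.989 to 2.29 CPM of DMSO without Dox.

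Genes that work with the members were counted from 5 lists drawn up with earlier results of these data known. Of all genes tested, Dox lowered 8.36%, 5.53% and 15.1% in experiment 1, DMSO and entinostat, and raised 5.26%, 3.77% and 8.96%. Entinostat raised 30.3% and lowered 16.9% without Dox, and raised 33.9% and lowered 29.9% with it. The list counts are to be read beside these shares. Of the list for IgE receptor signalling (14 of 17 tested), 7 fell and 1 rose with Dox in experiment 1, 8 fell and 1 rose in DMSO, and 10 fell and 1 rose in entinostat. The list's median log2 fold changes were -0.81, -1.02 and -1.14, beside 0.02, 0.05 and -0.08 over all genes tested. The adaptor Lcp2 (SLP-76), which links the receptor to phospholipase C, fell from 61.9 ± 7.8 to 3.95 ± 1.5 CPM in experiment 1 and from 59.8 ± 8.9 to 1.18 ± 0.27 CPM in DMSO (log2 fold changes -3.97 ± 0.30 and -5.66 ± 0.29; adjusted p = 0.00116 and 4.86e-07, edgeR). Lyn, the kinase that first phosphorylates the receptor, fell from 73.0 ± 1.3 to 36.8 ± 1.5 CPM in experiment 1 (-0.99 ± 0.07, adjusted p = 0.00115), and the phosphatase Ptpn6 and the kinase Btk fell too (-0.78 ± 0.08 and -0.70 ± 0.12). The gene that rose in all 3 was Grap2, an adaptor, named after its values were seen (log2 fold changes 1.48, 2.56 and 2.46). With entinostat alone 3 of the 14 rose and 3 fell. Cd200r3, an activating receptor of basophils, went from 0.306 ± 0.18 to 17.9 ± 2.4 CPM (5.85 ± 0.56, adjusted p = 6.59e-06), while Btk fell (-1.18 ± 0.21). Cd200r1 passed the interaction test (3.02 ± 0.43, adjusted p = 0.00953).

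Of the list for IL-33, KIT and IL-3 receptor signalling, 3 of 12 tested fell with Dox in experiment 1 and 0 rose, and 0 of 15 passed in DMSO. In entinostat, 6 of 15 fell with Dox and 0 rose (median log2 fold change -0.93 beside -0.08 over all genes). Irak1, a kinase below ST2, fell from 113 ± 2.9 to 62.9 ± 4.8 CPM in experiment 1 (-0.84 ± 0.08, adjusted p = 0.00212, edgeR). With entinostat alone 7 of 15 rose and 0 fell: Csf2rb, the shared beta chain of the IL-3 receptor, rose from 22.4 ± 10 to 159 ± 72 CPM (2.83 ± 0.59, adjusted p = 0.00167). With Dox present, entinostat raised 4 and lowered 6. Among those lowered were Il1rap, the co-receptor of ST2 (19.7 ± 5.6 to 7.36 ± 1.4 CPM, -1.42 ± 0.28), and Myd88, the adaptor below it (48.0 ± 11 to 24.1 ± 1.7 CPM, -0.995 ± 0.20), with adjusted p-values of 0.000787 and 0.00109. Il1rl1 rose in that same comparison.

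The granule and mediator list held proteases, cytokines and lipid mediator enzymes that are no members. With Dox, 5 of 9 tested fell in experiment 1 and 8 of 15 in DMSO, with 0 higher in either. In entinostat, 4 of 15 fell with Dox and 1 rose. Alox5ap, needed for leukotriene synthesis, fell from 13.9 ± 1.9 to 1.01 ± 0.17 CPM in DMSO (-3.78 ± 0.21, adjusted p = 4.86e-07, edgeR), and the mast cell protease Mcpt2 from 21.6 ± 9.5 to 2.07 ± 2.3 CPM (-3.40 ± 0.72, adjusted p = 0.00819). Srgn, the proteoglycan core that holds granule proteases, fell from 277 ± 52 to 154 ± 31 CPM in experiment 1 (-0.84 ± 0.20, adjusted p = 0.0397). With entinostat, 9 of 15 rose and 1 fell without Dox (median log2 fold change 1.40 beside 0.07 over all genes), and 11 rose and 1 fell with it (3.06 beside 0.14). Il4 rose from 0.526 ± 0.33 to 16.6 ± 3.9 CPM with Dox (4.99 ± 0.53, adjusted p = 1.05e-05). The gene that fell in both was Ndst2, which sulfates the heparin of mast cell granules (239 ± 51 to 78.0 ± 7.7 CPM without Dox, -1.62 ± 0.20).

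Lineage transcription factors passed in both directions. With entinostat alone 2 of 16 tested rose and 4 fell, and with Dox present 2 rose and 9 fell. Gata2, a factor needed by mast cells, fell from 245 ± 25 to 87.6 ± 21 CPM without Dox (-1.48 ± 0.24, adjusted p = 0.000254, edgeR), and its erythroid relative Gata1 from 289 ± 18 to 153 ± 23 CPM (-0.92 ± 0.18, adjusted p = 0.00124). Ikzf2 rose from 6.88 ± 1.2 to 54.5 ± 9.9 CPM (2.99 ± 0.21, adjusted p = 6.58e-07). With Dox, 4 of 16 fell and 2 rose in experiment 1, and 3 fell and 1 rose in DMSO, Spi1 itself counted. In entinostat, 8 of 16 fell with Dox and 0 rose (median log2 fold change -0.74). Bhlhe40, a basic helix-loop-helix factor, fell from 22.6 ± 1.8 to 7.20 ± 0.29 CPM in experiment 1 (-1.65 ± 0.10, adjusted p = 0.000828), and Tal1 rose from 332 ± 5.8 to 510 ± 14 CPM (0.62 ± 0.06, adjusted p = 0.00263).

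The members' chromosomal neighbours were read from the same fits, 3 protein-coding genes on each side. Of 48 neighbours that are no members, 25 were tested in experiment 2. With Dox in DMSO 2 rose and 2 fell, where 3.77% of all genes tested rose and 5.53% fell. With entinostat alone 12 rose and 1 fell, where 30.3% of all genes rose and 16.9% fell. Next to Ms4a2 lies Ms4a6d (10.7 kb away), the 1 gene of a list of 17 further family genes that had enough counts to test. It held 34 counts over the DMSO libraries and 2 with Dox, a ratio of 16.6 (95% exact interval 4.26 to 143, counting error only; adjusted p = 0.00103, edgeR), and rose with entinostat (log2 fold change 2.73 ± 0.35, adjusted p = 4.94e-05). The low Dox plus DMSO values and the rise with entinostat were seen in 3 adjacent genes of this family on chromosome 19. Ms4a6d, like Ms4a2 and Ms4a3, entered the test through groups where it was higher, and it was not tested in experiment 1. The shared pattern therefore describes the data and supports nothing further.

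At the Il1rl1 locus the genes split. Il1r1, the IL-1 receptor 112.3 kb away, rose with Dox where Il1rl1 fell, from 9.29 ± 1.3 to 18.1 ± 2.5 CPM in experiment 1 (0.96 ± 0.15, adjusted p = 0.0101) and from 11.9 ± 1.1 to 18.5 ± 1.8 CPM in DMSO (0.63 ± 0.16, adjusted p = 0.0266, edgeR). With entinostat alone all of Il1r1 (1.99 ± 0.17), Il1rl2 (5.06 ± 0.36), Il18r1 (4.48 ± 0.40) and Il18rap (4.10 ± 0.84) rose along with Il1rl1. Il18r1, an IL-18 receptor chain, begins 0.1 kb past the end of Il1rl1 on the same strand, and went from 0.161 ± 0.011 to 3.65 ± 0.50 CPM.

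**Figure D4:**
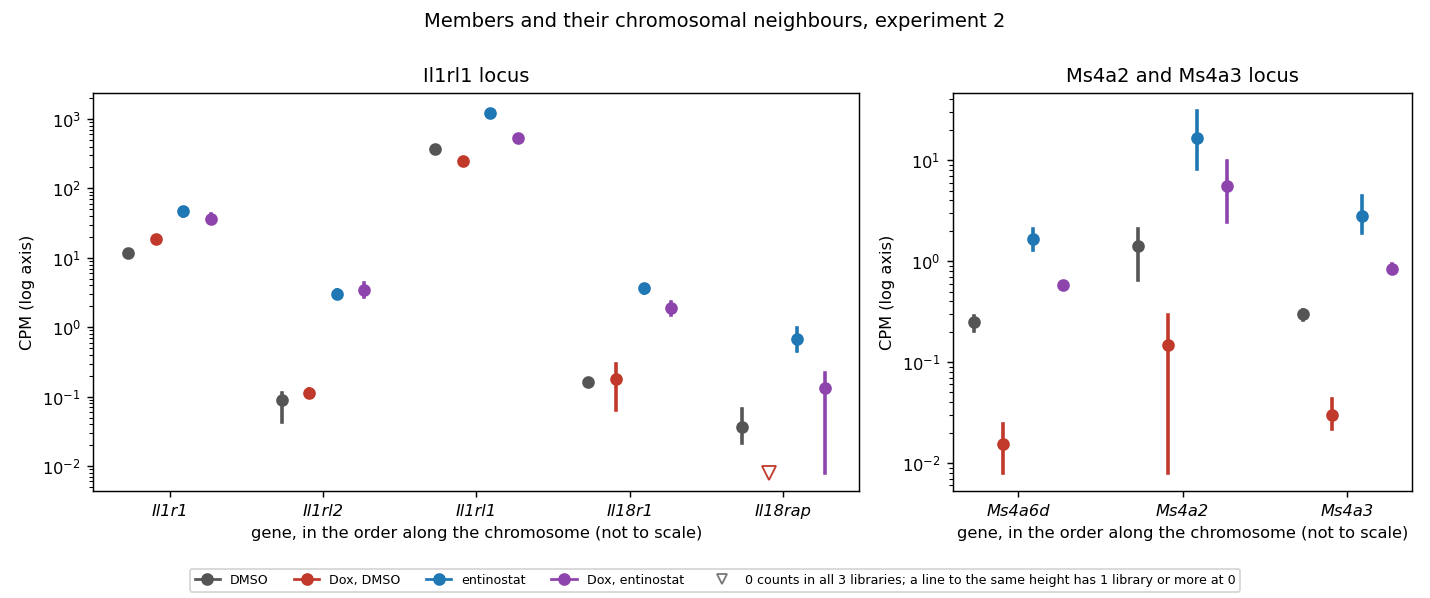
Mean CPM (points) and range over 3 libraries (lines) on a log axis for Il1rl1, Ms4a2, Ms4a3 and neighbouring genes in the 4 groups of experiment 2, in chromosomal order. Entinostat groups lie above the DMSO groups of the same Dox state for every gene drawn, and with Dox in DMSO Il1r1 lies higher while Il1rl1, Ms4a6d, Ms4a2 and Ms4a3 lie lower.

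For each member the genes with the most similar profile were found among 9382 genes of at least 5 CPM on average, by the mean absolute difference of centred log2 CPM over the 12 libraries of experiment 2. These libraries share their groups, so similarity is a description. Sh3d19 (0.15) was close to Il1rl1, and Cpne3 (0.24) and Cnn2 (0.30) were closest to Hdc. Cpne3 stood at 37.8 ± 6.35, 18.7 ± 3.35, 114 ± 33 and 41.7 ± 1.7 CPM in DMSO, Dox plus DMSO, entinostat and Dox plus entinostat. Gzmb was closest to AB124611 (0.40) and to Lcp1, the actin-bundling plastin of leukocytes (0.53), which stood at 161 ± 19.5, 19.1 ± 2.8, 262 ± 77 and 43.0 ± 7.4 CPM in the same order. For Ms4a2 the closest was Cd200r4 (0.69), for Ms4a3 Gm5547 (0.34), for Cpa3 Klhl6 (0.52), for Fcer1a C230035I16Rik (0.49) and for Kit Acad10 (0.25). The members' own mean absolute deviations were 0.40 for Kit, 0.71 for Il1rl1, 0.80 for Hdc and 1.60 to 2.15 for the rest. The distances therefore do not rank the matches between members, and that of Kit was large beside its own spread.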

How the data were processed

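RNA from 18 cultures was sequenced from polyadenylated RNA with an unstranded kit, per the labels' protocols, so reads of overlapping antisense genes cannot be told apart. The authors deposited raw counts per gene, 1 table per experiment, and per the submitters' processing notes used bcl2fastq 2.17.1.14, STAR, DESeq2 and mm10. The counter is not given in the sources used here. The experiment 1 table holds no value under 1, with 3543 of 25628 genes at 1 throughout; experiment 2 lists 26903 genes.

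Each experiment was fitted alone with edgeR 4.0.16 (R 4.3.3): TMM, filterByExpr (13811 and 15051 genes kept), quasi-likelihood tests on group means, two-sided, Benjamini-Hochberg adjustment over all genes, threshold 0.05. Experiment 2 was 1 fit of 12 libraries. The SE is the log2 fold change over the root of F. Biological variation between libraries (edgeR's common estimate) was 0.194 and 0.242. Scripts were tested on simulated data. Alternatives were other scaling, filters, DESeq2 1.42.0, limma-voom (limma 3.58.1), counts minus 1 in experiment 1, a replicate block, and each library left out. Same-numbered libraries deviated together in experiment 1 (r = 0.83, 0.72 and 0.31), so numbers there pair the samples by this check on the data; in experiment 2 they did not in every pair.

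Coordinates and exon lengths came from GENCODE M21 (mm10), which held 24876 of the symbols and 26853 of the identifiers. Named genes are all members, and from each list up to 4 called genes of at least 5 CPM with the lowest adjusted p. Members and lists were chosen with earlier results of these data known. Reads carried no molecular identifiers, so counting intervals treat PCR copies as separate molecules.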

Additional observations from a re-analysis of the deposited data

How the results depend on the processing

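Of 923 values of single members under the alternatives, 823 kept direction and side of the threshold, 46 lost and 29 gained a call, and 25 turned direction, of 7 results that did not pass with all libraries. Of the 25, 1 passed: Fcer1a with Dox in entinostat, 0.87 on the log2 scale without both libraries that stood apart. With libraries left out that result ran from -0.47 to 0.87, and it was 0.15 with limma-voom and 0.19 with the replicate block. With libraries left out, Fcer1a ran from -0.66 to 0.67 with Dox in experiment 1 (-0.073 with limma-voom), from -2.22 to 0.078 in DMSO and from -0.18 to 3.10 for the interaction. Kit ran from -0.063 to 0.43 in experiment 1 and from -0.12 to 0.47 in DMSO, and Gzmb from -0.10 to 0.78 for the interaction. The number of members called with Dox in experiment 1 was 4, but 2 with no filter and 1 with a filter of 1 CPM in 3 libraries, which tests 4 members. It was 1 to 3 with 1 library left out. Counts minus 1 gave 3 of 6 members tested, with Ms4a3 not tested. With Dox in DMSO it was 5, but 3 with limma-voom, 3 with the 2 groups alone, and 2 to 7 with libraries left out (7 without both that stood apart). For Dox in entinostat (5) the range was 4 to 6, for entinostat without Dox (7) 6 to 8, and with Dox (7) 6 to 7. For the interaction (0) DESeq2 gave 2 and left-out libraries 0 to 5. The cause of these shifts was not tested. With the replicate block, members called were 5, 5, 6, 8, 7 and 0 in that order; Hdc in experiment 1 (adjusted p = 0.0414, paired by the data) gained its call, and so did Ms4a2 with Dox in entinostat (0.000911) and Kit with entinostat alone (0.0120). Over all genes tested the block called 7027 against 1881 in experiment 1, 6115 against 3614 with Dox in entinostat and 177 against 41 for the interaction. No filter called 1103 in experiment 1 and 206 for the interaction, where DESeq2 called 229. With 1 library left out, calls over all genes ran from 684 to 1508 in experiment 1, from 862 to 1741 with Dox in DMSO (1401), from 994 to 7583 with Dox in entinostat and from 9 to 3061 for the interaction; without both libraries that stood apart the last 3 were 4846, 9569 and 7972. In experiment 2 the same-number correlations ran from 0.0095 to 0.78. Scaling by library size alone moved the median over all genes tested (log2) from 0.07 to 0.32 with entinostat, from 0.14 to 0.28 with Dox added, and from -0.08 to -0.22 for Dox in entinostat, and changed no member's direction. Low counts limit Mitf, Cpa3, Ms4a3 and Gzmb in the Dox libraries.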
